A study of Danio rerio with 15 samples.

Results

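The genes dbpa, dbpb, tefa and tefb encode zebrafish transcription factors of the PAR bZIP family, the proline- and acidic-amino-acid-rich basic leucine zipper proteins. They were taken by gene name from a deposited expression table, and all 4 were found among its 5686 genes. The 4 genes were chosen by their high FPKM at 1 day post-injury (dpi) against uninjured kidneys, so the comparison of 1 dpi with uninjured kidneys is given as a description, without a test. The later comparisons with uninjured kidneys use the same uninjured samples and are thus not fully independent of that choice.

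PAR bZIP proteins bind D-box elements in promoters and activate transcription. In mouse they are outputs of the circadian clock: CLOCK and BMAL1 drive Dbp through E-boxes, and DBP, TEF and HLF together set daily rhythms of detoxification and transport genes in liver and kidney. The repressor NFIL3 competes with them for the same D-boxes. In zebrafish the D-box is also a light-responsive element, through which light reaches clock genes such as per2 in peripheral tissues, and zebrafish kept duplicated copies of dbp and tef.

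The study followed whole kidneys of zebrafish of the AB strain, 6 months of age, through nephron regeneration after acute kidney injury. Injury was induced by an intraperitoneal injection of gentamicin, an antibiotic toxic to kidney tubules, and by the study's methods injured fish that excreted protein in the urine at 1 dpi were used. Poly(A) RNA was sequenced from uninjured kidneys and from kidneys at 1, 3, 5 and 7 dpi, with 3 samples in each of the 5 groups. The sources used here do not say whether a sample held 1 fish or several, whether uninjured fish received a vehicle injection, or the sex of the fish.

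The values are FPKM (fragments counted per gene, scaled to gene length and library size), and the recovered library totals behind them were between 13875548 and 16367612 reads. The listed genes held 19.2% to 34.2% of these reads, so the table is a part of the transcriptome. The fish lived under 14 hours of light and 10 hours of dark, and the hour of each kidney collection is not given in the sources used here. Injury and hour of collection cannot be told apart for these clock output genes. The tissue label was checked on 14 tubule markers, of which 7 were listed, and their summed level was 524 to 790 FPKM (1 dpi), 271 to 410 FPKM (3 dpi), 147 to 519 FPKM (5 dpi) and 231 to 247 FPKM (7 dpi), against 898 to 1393 FPKM in uninjured kidneys. Ovary markers were present as well. The sum of the 12 listed of 21 ovary markers was 19.4 to 666 FPKM (1 dpi), 18.6 to 30.8 FPKM (3 dpi), 30.3 to 1005 FPKM (5 dpi) and 197 to 318 FPKM (7 dpi), against 30.1 to 1964 FPKM in uninjured kidneys. Of 11 listed exocrine pancreas markers, 8 had every 5 dpi sample below the uninjured samples. In 1 other, cpa5, which makes up most of their 5 dpi sum, every 5 dpi sample was above. By limma 0 of the 11 were called at 5 dpi, beside 8.16% of all genes tested. How many of all genes were lower without overlap at 5 dpi was not counted. Of 7 listed blood markers, 4 leukocyte genes (mpx, cd4-1, mfap4 and mpeg1.1) had every sample above the uninjured samples at 3 and at 5 dpi. Of the genes tested, 18.5% and 21.5% did so. At 3 dpi mfap4 was called (limma adjusted p = 0.042), but not in 5 of the 6 fits that left out 1 sample. The markers hbaa1 and mmp13a overlapped at both times, and alas2 was lower in every 3 dpi sample (ratio of means 0.377) and overlapped at 5 dpi. The part of all these markers in the values of the PAR bZIP genes was not tested.

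The table, whose build is GRCz11 per the submitters' processing notes, places the 4 genes on 4 chromosomes, all on the minus strand. The dbp pair is dbpa (ENSDARG00000063014) on chromosome 19, from 10258190 to 10277445, and dbpb (ENSDARG00000057652) on chromosome 16, from 13709573 to 13723355. The tef pair is tefa (ENSDARG00000039117) on chromosome 12, from 19022959 to 19031303, and tefb (ENSDARG00000098103) on chromosome 3, from 5142981 to 5157744. No paralogue lies beside another.

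In uninjured kidneys the pairs differed in level. The dbp genes averaged 1.05 ± 0.0494 FPKM for dbpa and 1.49 ± 0.420 FPKM for dbpb, whereas tefa averaged 24.4 ± 6.75 FPKM and tefb 14.6 ± 6.05 FPKM (SD, n = 3). Every uninjured sample had both tef genes above both dbp genes. The low dbp levels still rested on 42 to 50 reads per sample for dbpa and 80 to 143 for dbpb, above the floor of 3 reads used here.

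At 1 dpi all 4 genes were higher, and the dbp pair more so than the tef pair. For dbpa, which encodes a paralogue of D-box binding protein, the level was 9.76, 13.3 and 17.9 FPKM at 1 dpi, against 1.01, 1.11 and 1.04 FPKM in uninjured kidneys. The lowest 1 dpi sample was far above the highest uninjured one, and the ratio of the means was 13. The other paralogue, dbpb, had 38.3, 56.8 and 69.5 FPKM at 1 dpi, against 1.11, 1.42 and 1.94 FPKM in uninjured kidneys, a ratio of means of 36.8. It was the gene with the largest ratio of the 4, and it passed tefa and tefb in mean level at 1 dpi only.

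The tef genes, paralogues of thyrotroph embryonic factor, were high in uninjured kidneys and differed less. For tefa the level was 49.7, 52.3 and 51.2 FPKM at 1 dpi, against 18.7, 22.6 and 31.9 FPKM in uninjured kidneys, a ratio of means of 2.09. The 3 samples at 1 dpi nearly coincided, with a coefficient of variation of 2.57%, against 17.2% to 29.8% for the other 3 genes. For tefb the level was 36.8, 37.8 and 49.6 FPKM at 1 dpi, against 10.6, 11.6 and 21.5 FPKM in uninjured kidneys, a ratio of means of 2.84. In both tef genes the 1 dpi and uninjured samples did not overlap.

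**Figure D1:**
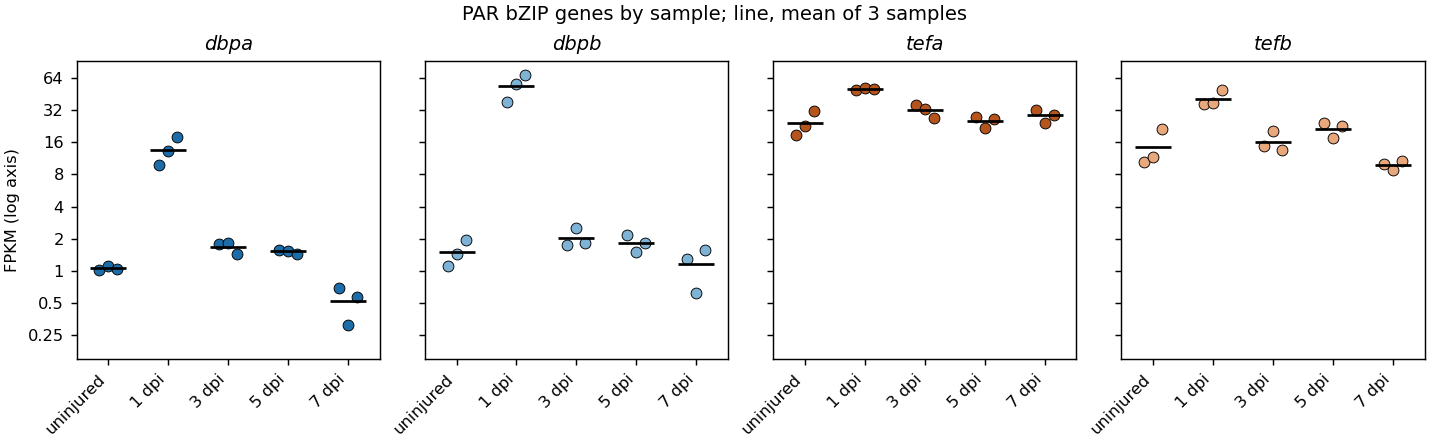
FPKM on a log axis for each sample (points) of dbpa, dbpb, tefa and tefb in uninjured kidneys and at 1, 3, 5 and 7 dpi, with lines at the means of 3 samples. All 4 genes are highest at 1 dpi, where dbpa lies between 9.76 and 17.9 FPKM and dbpb between 38.3 and 69.5, and dbpa alone has every 7 dpi sample below every uninjured sample.

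On the log2(FPKM + 1) scale the change at 1 dpi was 2.80 for dbpa, 4.46 for dbpb, 1.07 for tefa and 1.499 for tefb, with limma standard errors of 0.28, 0.29, 0.24 and 0.31. The added 1 FPKM understates the change of the low dbp genes: with 0.1 FPKM in its place it was 3.54 for dbpa and 5.10 for dbpb. Every 1 dpi sample was above every uninjured sample in 4 of the 4 genes, beside 24.6% of the 5685 genes tested, and since this contrast chose the genes, nothing is read from that count. The samples are whole kidneys, so a change in RNA per cell and a change in the number of cells that carry it cannot be told apart. The tubule marker sum was lower in each 1 dpi sample than in each uninjured sample. By marker, lrp2a, cubn, slc5a2 and slc6a19b were lower without overlap, slc20a1a was higher without overlap, and acy1 and slc22a2 overlapped. How many of all genes were lower without overlap at 1 dpi was not counted. In uninjured kidneys slc22a2 was the largest part of the sum, at 286, 834 and 428 FPKM. The part of these markers in the values of the 4 genes was not tested.

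The proportions of the 4 genes differed at 1 dpi along with their total. The summed level of the 4 genes was 134.5, 160.2 and 188.1 FPKM at 1 dpi, against 31.4, 36.7 and 56.4 FPKM in uninjured kidneys. The dbp pair made up 35.7%, 43.8% and 46.4% of that sum at 1 dpi, against 6.76%, 6.88% and 5.28% in uninjured kidneys. At 3, 5 and 7 dpi this share lay again at 6.47% to 7.49%, 6.16% to 7.15% and 2.71% to 5.04%.

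**Figure D2:**
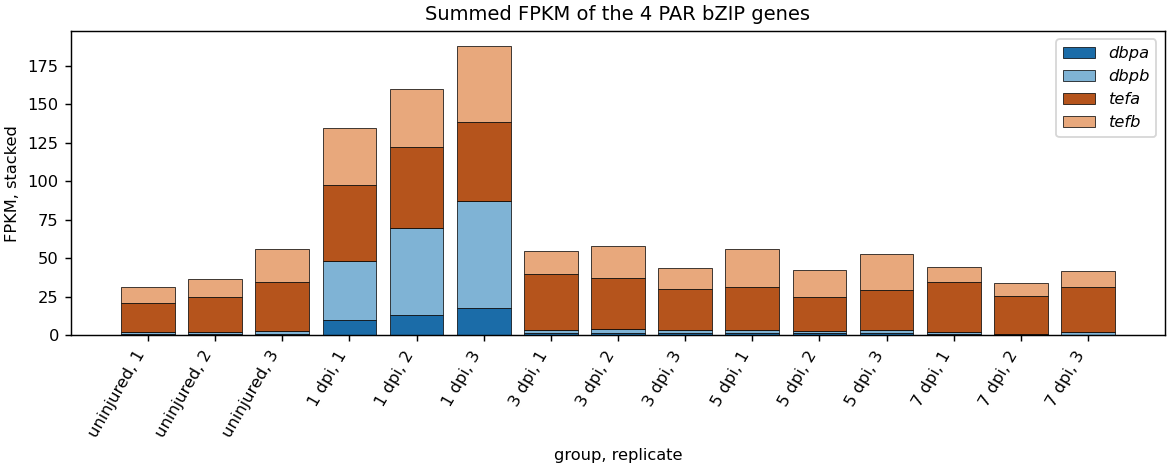
Summed FPKM of the 4 genes in each of the 15 samples, stacked by gene from 0. The 1 dpi bars reach 134.5 to 188.1 FPKM and are the only ones in which dbpa and dbpb fill a large share (35.7% to 46.4%), while tefa and tefb make up most of every other bar.

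By 3 dpi the 4 genes had left the 1 dpi level, and none passed the test against uninjured kidneys. The level of dbpa was 1.79, 1.80 and 1.42 FPKM at 3 dpi, and that of dbpb 1.75, 2.54 and 1.81 FPKM. The level of tefa was 36.4, 33.2 and 27.2 FPKM, and that of tefb 14.8, 20.4 and 13.5 FPKM. Set against the uninjured values above, only dbpa had every 3 dpi sample higher, as did 18.5% of the genes tested, and the other 3 genes overlapped. The change was 0.38 for dbpa (95% interval -0.03 to 0.78, limma adjusted p = 0.14), 0.29 for dbpb (-0.26 to 0.83, limma adjusted p = 0.37), 0.41 for tefa (-0.17 to 1.00, limma adjusted p = 0.24) and 0.19 for tefb (-0.57 to 0.94, limma adjusted p = 0.68). With limma 0 of the 4 genes had an adjusted p below 0.05, against 13.3% of all genes tested, 0 of the 4 had an unadjusted p below 0.05, and voom on the recovered reads called 0 of the 4.

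At 5 dpi tefb had the highest mean of the later groups, though its samples overlapped those of uninjured kidneys. It was at 24.4, 17.6 and 22.8 FPKM at 5 dpi, where tefa was at 27.7, 21.9 and 26.6 FPKM. The dbp genes were at 1.57, 1.53 and 1.45 FPKM for dbpa and 2.15, 1.51 and 1.80 FPKM for dbpb. Again dbpa alone lay above uninjured kidneys in every sample, with 21.5% of the genes tested doing so. The change was 0.59 for tefb (95% interval -0.15 to 1.34, limma adjusted p = 0.24) and 0.30 for dbpa (-0.03 to 0.62, limma adjusted p = 0.19), while dbpb and tefa had changes of 0.18 and 0.08 (limma adjusted p = 0.52 and 0.81). With limma 0 of the 4 genes were called, against 8.16% of all genes tested, 0 of the 4 had an unadjusted p below 0.05, and voom called 0 of the 4.

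At 7 dpi dbpa was the one gene of the 4 with every sample below uninjured kidneys. Its level was 0.685, 0.307 and 0.561 FPKM at 7 dpi, against 1.01, 1.11 and 1.04 FPKM in uninjured kidneys, a ratio of means of 0.493. These values rested on 33, 14 and 27 reads at 7 dpi, against 42, 50 and 44 reads in uninjured kidneys. The change of -0.44 (95% interval -0.77 to -0.12) had an unadjusted limma p of 0.016 and did not pass after adjustment (limma adjusted p = 0.069). Groups that did not overlap, with 7 dpi lower, were found in 27.4% of the genes tested. The ovary marker sum was 197 to 318 FPKM at 7 dpi, against 30.1 to 1964 FPKM in uninjured kidneys. The part of ovary RNA in the 7 dpi values was not tested.

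The other 3 genes overlapped uninjured kidneys at 7 dpi. The level of dbpb was 1.27, 0.621 and 1.55 FPKM, with a change of -0.23 (95% interval -0.79 to 0.34, limma adjusted p = 0.50). That of tefa was 32.5, 24.5 and 29.1 FPKM, with a change of 0.25 (-0.33 to 0.83, limma adjusted p = 0.47). That of tefb was 10.0, 8.90 and 10.7 FPKM, with a change of -0.46 (-1.16 to 0.25, limma adjusted p = 0.30). With limma 0 of the 4 genes had an adjusted p below 0.05, against 17.2% of all genes tested, 1 of the 4 (dbpa) had an unadjusted p below 0.05, and voom called 0 of the 4. The median change of the 4 genes was 0.33 (3 dpi), 0.24 (5 dpi) and -0.33 (7 dpi), beside -0.13, -0.09 and -0.22 for all genes tested. The same uninjured samples enter each of these comparisons. They also served in choosing the 4 genes, so nothing is read from the medians of the 4 beside those of all genes.

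**Figure D3:**
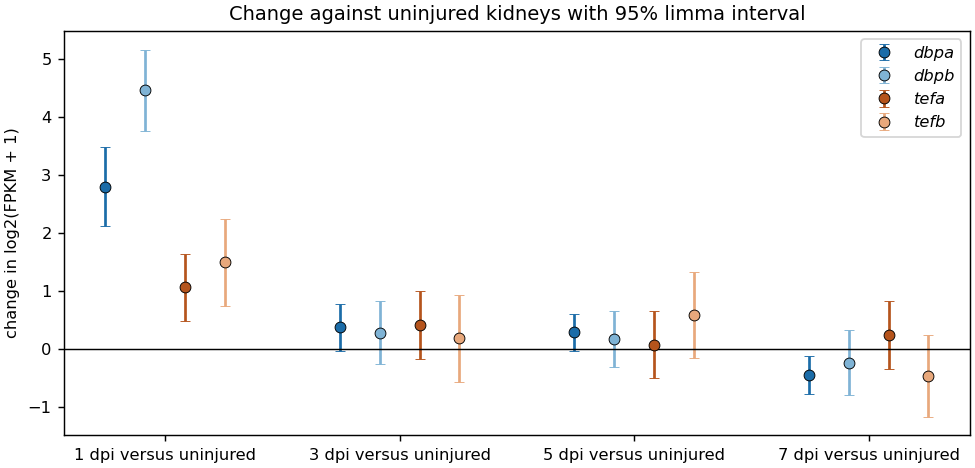
Change in log2(FPKM + 1) of each gene at 1, 3, 5 and 7 dpi against uninjured kidneys (points), with 95% intervals from limma fits on 6 samples. At 1 dpi the points run from 1.07 (tefa) to 4.46 (dbpb) and serve as a description. At 3 and 5 dpi every interval includes 0, and at 7 dpi that of dbpa, -0.77 to -0.12, does not. The intervals are not adjusted for the number of genes, and dbpa at 7 dpi did not pass after adjustment (limma adjusted p = 0.069).

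Ordered by mean, dbpa ran 1 dpi, 3 dpi, 5 dpi, uninjured, 7 dpi, and only the neighbours 3 and 5 dpi overlapped. For dbpb the order was 1 dpi, 3 dpi, 5 dpi, uninjured, 7 dpi, for tefa it was 1 dpi, 3 dpi, 7 dpi, 5 dpi, uninjured, and for tefb it was 1 dpi, 5 dpi, 3 dpi, uninjured, 7 dpi. In these 3 genes 1 dpi stood clear of the next group and every other pair of neighbours overlapped. Uninjured samples differed by 1.09 times in dbpa, against 1.75, 1.70 and 2.03 times in dbpb, tefa and tefb, the last 3 all highest in uninjured replicate 3. The uninjured dbpa values rested on only 42, 50 and 44 reads, so counting error alone can move them. Whether the genes differ in spread was not tested.

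The lower values at 7 dpi were also set against the earlier injured groups, in comparisons chosen after the values were seen. Between 7 and 3 dpi, dbpa fell by 0.82 (standard error 0.15, 95% interval -1.17 to -0.47, limma adjusted p = 0.016), with the 7 dpi mean at 0.310 of the 3 dpi mean. It was the 1 gene of the 4 called, beside 16.7% of all genes tested. Every 7 dpi sample was also below every 3 dpi sample in dbpb (change -0.51, limma adjusted p = 0.14) and tefb (-0.65, limma adjusted p = 0.069), and 20.4% of the genes tested were lower without overlap. For tefa the groups overlapped and the change was -0.16 (95% interval -0.62 to 0.29, limma adjusted p = 0.56). Without 7 dpi replicate 3, the change of dbpa was -0.84 and its limma adjusted p 0.059. Between these groups 11 of the 12 listed ovary markers were called higher at 7 dpi, and their part in the dbpa value was not tested.

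Between 7 and 5 dpi the largest change was in tefb, by -1.05 (standard error 0.18, 95% interval -1.49 to -0.61, limma adjusted p = 0.090), with its 7 dpi mean at 0.456 of the 5 dpi mean. The change of dbpa was -0.74 (-1.07 to -0.40, limma adjusted p = 0.090). In both genes every 7 dpi sample lay below every 5 dpi sample, a pattern found in 21.7% of the genes tested. The groups overlapped in dbpb (-0.41, limma adjusted p = 0.33) and tefa (0.17, limma adjusted p = 0.65). With limma 0 of the 5685 genes passed after adjustment in this comparison (0% of all genes tested), while 1277 genes and 2 of the 4 (dbpa and tefb) had an unadjusted p below 0.05, and voom called 0 genes. Without 5 dpi replicate 1, both dbpa (-0.72, limma adjusted p = 0.048) and tefb (-0.96, limma adjusted p = 0.047) passed.

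Ratios within a sample do not depend on how the samples are scaled to each other. In these samples the ratio of the 2 tef copies was not the same in all groups. The tefb level was 0.511, 0.566 and 0.675 of the tefa level in uninjured kidneys, listed from the lowest sample to the highest. The 1 dpi samples had 0.722, 0.740 and 0.969, and the next had 0.406, 0.494 and 0.613 at 3 dpi. The later samples had 0.806, 0.860 and 0.880 at 5 dpi and 0.308, 0.364 and 0.367 at 7 dpi. The 5 dpi samples were thus all above, and the 7 dpi samples all below, the uninjured samples. Over the 12 samples of uninjured kidneys and 3, 5 and 7 dpi, leaving out 1 dpi because it chose the genes, the log2 ratio differed between groups (two-sided exact permutation test on the between-group sum of squares, p = 0.00039, adjusted p = 0.000779 over 2 ratios, smallest possible p 6e-05). Leaving out each of the 12 samples gave exact p-values of 0.00013 to 0.00227. The ratios were chosen after the values were seen, and the uninjured samples kept here also served in choosing the genes. The adjustment covers only the 2 ratios, so the p-values of both ratios describe the samples at hand.

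The ratio of dbpb to dbpa was 3.89, 3.92 and 4.26 at 1 dpi, against 1.1, 1.28 and 1.88 in uninjured kidneys, from lowest to highest. At 3 dpi it was 0.977, 1.28 and 1.41, with 0.986, 1.24 and 1.36 at 5 dpi and 1.86, 2.02 and 2.76 at 7 dpi. At 1 dpi the 3 samples stood clear of all others, and at 7 dpi the lowest sample was just under the highest uninjured one. Over the same 12 samples without 1 dpi the exact permutation p was 0.0334 (adjusted p = 0.0334 over 2 ratios). This p was near the threshold, and both genes are low outside 1 dpi. The exact p was 0.122 without 7 dpi replicate 3, 0.0518 without 3 dpi replicate 3, 0.0542 without 5 dpi replicate 2, 0.0522 without 5 dpi replicate 3, and 0.242 with 1 FPKM added to both genes.

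**Figure D4:**
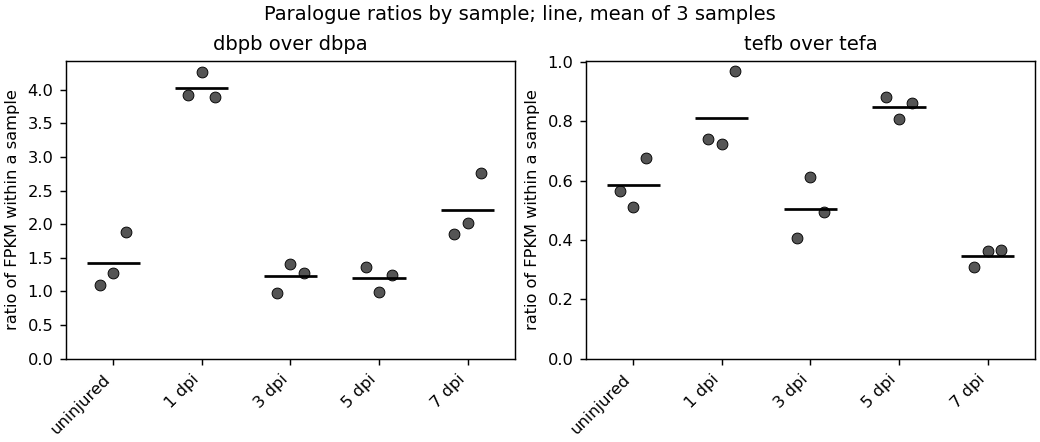
Ratio of FPKM of dbpb to dbpa (left) and of tefb to tefa (right) in each sample (points) by group, with lines at the means of 3 samples and axes from 0. The dbp ratio is highest at 1 dpi (3.89 to 4.26), and the tef ratio is lowest at 7 dpi (0.308 to 0.367) and between 0.806 and 0.880 at 5 dpi.

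Likeness of profile was measured as the root mean square distance between log2(FPKM + 1) profiles over the 15 samples, each gene centred on its mean. It was computed over 4461 genes with a mean of at least 1 FPKM. The 4 genes, and genes with only an identifier or clone-type name, were left out of the ranking. Among the genes ranked, nearest to dbpb was per1a (0.27), a period gene of the negative limb of the clock. It was followed by cyp24a1 (0.34), the vitamin D 24-hydroxylase, and bbc3 (0.38), a pro-apoptotic BCL2 family gene. Nearest to dbpa were nrg1 (0.25), which encodes neuregulin, nedd9 (0.26), an adhesion scaffold gene, and egr2a (0.26), an immediate-early zinc finger gene. The distance of dbpa to its paralogue dbpb was larger, at 0.69. Their profiles correlated by 0.98, as did those of dbpa with nrg1 and nedd9, so the distance also counts the size of a change. The added 1 FPKM shrinks changes of low genes: egr2a had means of 0.0497 FPKM in uninjured kidneys and 7.61 FPKM at 1 dpi. The tef genes had other neighbours: nob1 (0.20), chmp3 (0.21) and cdkn1bb (0.21) for tefa, and stk35 (0.22), wbp1lb (0.24) and kdm7aa (0.26) for tefb. By this measure tefa and tefb were 0.47 apart, and dbpb was 1.43 from tefa and 1.22 from tefb. Each profile includes the 1 dpi samples that served to choose the 4 genes, so the distances are a description.

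The remaining D-box factors were set beside the 4 genes. Of 8 such genes on the list, 6 were listed, hlfa and hlfb of the PAR bZIP family and 4 genes of the nfil3 repressor family, and all 6 had every 1 dpi sample above every uninjured sample, as had 24.6% of the genes tested. The highest of them were repressors. For nfil3-2 the level was 118, 172 and 267 FPKM at 1 dpi, against 15.04, 14.2 and 29.7 FPKM in uninjured kidneys, and for nfil3-6 it was 120.5, 88.5 and 213 FPKM at 1 dpi, against 15.5, 23.9 and 31.1 FPKM in uninjured kidneys. For nfil3-5 the mean was 52.6 ± 14.8 FPKM at 1 dpi and 23.4 ± 2.89 FPKM in uninjured kidneys, and for nfil3 it was 23.5 ± 3.46 FPKM at 1 dpi and 8.74 ± 0.904 FPKM in uninjured kidneys (SD, n = 3). In mean level per gene length at 1 dpi, nfil3-2 (186 FPKM) and nfil3-6 (141 FPKM) thus stood above dbpb (54.9 FPKM), tefa (51.1 FPKM) and tefb (41.4 FPKM). These repressors were not called at 3, 5 or 7 dpi (limma adjusted p of 0.14 to 0.80).

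Of the hlf pair, hlfa was at 28.3, 36.8 and 91.9 FPKM at 1 dpi, against 17.5, 24.7 and 26.5 FPKM in uninjured kidneys, and 1 dpi replicate 3 alone was far above the rest. At 7 dpi hlfa was at 9.20, 7.22 and 9.43 FPKM, below every uninjured sample, and fell by 1.302 (standard error 0.22, limma adjusted p = 0.022). On leaving out each of the 6 samples in turn its change was -1.48 to -1.19, and it was not called in the 3 fits without 1 of the 7 dpi samples. It was the 1 gene of these 6 called at 7 dpi, beside 17.2% of all genes tested. At 3 and 5 dpi 0 of the 6 were called, beside 13.3% and 8.16%. The level of hlfb was low, with means of 2.40 ± 0.5996 (1 dpi), 1.43 ± 0.593 (3 dpi), 1.63 ± 0.693 (5 dpi) and 0.692 ± 0.0831 FPKM (7 dpi), against 0.932 ± 0.133 FPKM in uninjured kidneys (SD, n = 3). Its 7 dpi samples all lay below the uninjured samples, as in dbpa, hlfa and 27.4% of the genes tested, without passing the test (change -0.19, limma adjusted p = 0.28).

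**Figure D5:**
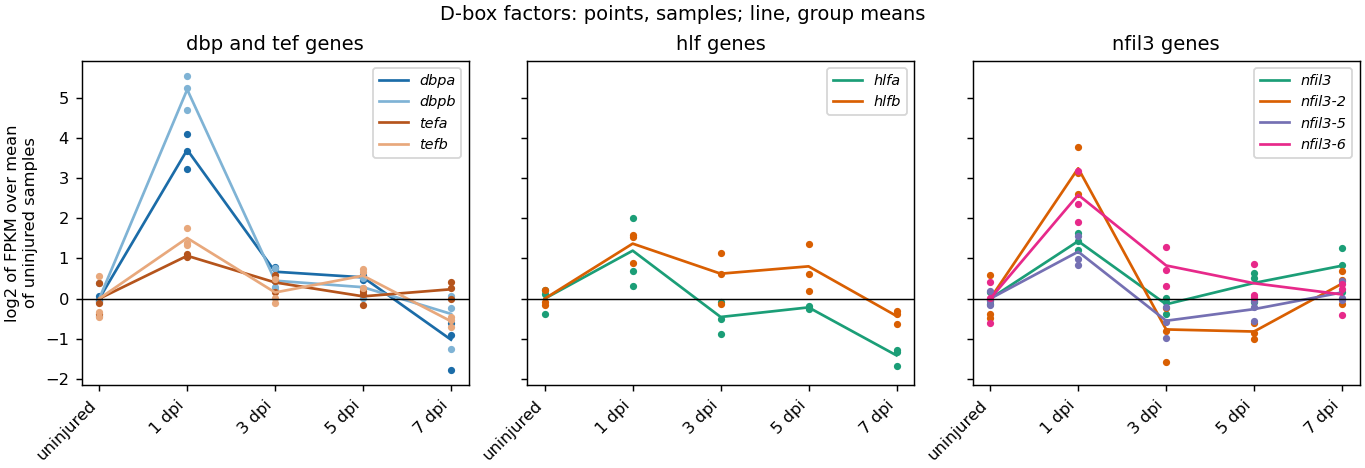
Log2 of FPKM over the mean of uninjured samples for the dbp and tef genes (left), the hlf genes (middle) and the nfil3 genes (right), with samples as points and group means joined by lines from uninjured kidneys to 7 dpi. All 10 genes are highest at 1 dpi, and at 7 dpi hlfa is at 0.376 of its uninjured mean.

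Upstream in the clock, 3 of the 9 activator genes on the list were in the table. The level of npas2, whose protein can take the place of CLOCK, was 3.01, 2.495 and 6.78 FPKM at 1 dpi, against 4.65, 4.34 and 4.28 FPKM in uninjured kidneys, so these overlapped. It was lower at 3, 5 and 7 dpi, with changes of -1.02, -0.99 and -1.44 (limma adjusted p = 0.032, 0.030 and 0.016). None of the 4 PAR bZIP genes was called at these times, beside 13.3%, 8.16% and 17.2% of all genes tested. For arntl2, a BMAL gene, the level was 5.64, 7.88 and 19.8 FPKM at 1 dpi, against 5.08, 3.32 and 3.01 FPKM in uninjured kidneys. The 1 dpi samples were higher without overlap, as in 24.6% of the genes tested. At none of the later times was arntl2 called (limma adjusted p of 0.17 to 0.63). For clocka the level was between 0 and 1.60 FPKM in all samples, and it was called at none of the later times (limma adjusted p of 0.14 to 0.68).

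Among 13 listed of 20 clock repressors, 12 had every 1 dpi sample above and 1, cry1ba, every 1 dpi sample below the uninjured samples, where 24.6% of the genes tested were higher without overlap. After that, 1 was called higher at 3 dpi (per1a, 1.57, 1.52 and 1.39 FPKM at 3 dpi, against 0.374, 0.484 and 0.799 FPKM in uninjured kidneys, limma adjusted p = 0.045), 0 were called at 5 dpi and 3 were called lower at 7 dpi, beside 13.3%, 8.16% and 17.2% of all genes tested in either direction. Those 3 were cry1ab, cry1ba and bhlhe40, with changes of -1.02, -0.61 and -0.94. Between 7 and 3 dpi, 6 of the 13 were called lower and 0 higher, beside the 1 of 4 PAR bZIP genes (dbpa) and 16.7% of all genes tested. At 3 dpi per1a thus stood clear of uninjured kidneys, where dbpb, whose nearest ranked profile it was, overlapped them.

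Of 10 genes for nuclear receptors that act on RORE elements, 7 were listed. At 1 dpi 6 of them had every sample above and 1 (rorca) every sample below the uninjured samples. Of the genes tested, 24.6% were higher without overlap. The rev-erb gene nr1d1, a repressor of the clock activators, was at 663, 1142 and 1435 FPKM at 1 dpi and still at 11.2, 21.2 and 18.2 FPKM at 3 dpi. Its uninjured level was 0.394, 0.860 and 2.57 FPKM, and its change at 3 dpi was 3.04 (limma adjusted p = 0.014). Its relative nr1d4b was also called higher at 3 dpi and rorca lower, and at 7 dpi rorab and rorca were lower. At 5 dpi 0 of the 7 were called. Of all genes tested, 13.3%, 8.16% and 17.2% were called at 3, 5 and 7 dpi in either direction. At 3 dpi the interval of each of the 4 PAR bZIP genes included 0, and the difference between them and nr1d1 was not tested.

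Genes linked to D-boxes or to PAR bZIP factors were given by list as well. Of 9 light-responsive and D-box genes of zebrafish, 5 were listed: per2, cry1aa, cry5, cry-dash and ddb2. The 1 dpi samples of 3 of these, per2, cry1aa and cry-dash, were all above the uninjured samples, as in 24.6% of the genes tested. Of them, per2 and cry1aa are also clock repressors on the list above and were counted there already. At 3, 5 or 7 dpi 0 of 5 were called, beside 13.3%, 8.16% and 17.2% of all genes tested. For per2 the level was 21.5, 30.9 and 67.0 FPKM at 1 dpi, against 8.57, 9.47 and 9.93 FPKM in uninjured kidneys. Of 10 genes that depend on PAR bZIP factors in mouse or lie in the same pathways there, 5 were listed. Of these 3 (porb, pparaa and nocta) had all 1 dpi samples higher, again beside 24.6% of the genes tested, and nr1i2 and pparab overlapped. The largest change at 1 dpi among these 5 was in nocta, at 53.8, 38.2 and 55.2 FPKM at 1 dpi, against 5.95, 5.10 and 2.97 FPKM in uninjured kidneys. At 7 dpi 2 of these 5 were called lower, nr1i2, the xenobiotic receptor PXR (change -0.90, limma adjusted p = 0.031), and pparab, a PPARα gene (change -1.37, limma adjusted p = 0.032). Beside them stood 0 of the 4 PAR bZIP genes and 17.2% of all genes tested, called in either direction.

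The changes of npas2 and nr1d1 moved little when each of the 6 samples was left out in turn, but calls were lost. The change of npas2 was -1.09 to -0.90 (3 dpi), -1.01 to -0.96 (5 dpi) and -1.48 to -1.36 (7 dpi), and that of nr1d1 at 3 dpi was 2.75 to 3.43. Of the 6 fits, npas2 was not called in 5 (3 dpi), 6 (5 dpi) and 3 (7 dpi), and nr1d1 at 3 dpi was not called in 2. Few genes passed in some fits with 2 samples in a group. Without 7 dpi replicate 1, 2 or 3, limma called 0, 7 and 0 of all genes at 7 dpi, so these fits cannot show whether a call holds. Without uninjured replicate 1 or 3, limma called 153 and 456 genes at 7 dpi. There npas2, hlfa and rorca kept their calls, whereas cry1ab, cry1ba, bhlhe40, nr1i2 and rorab lost theirs in both fits. The call of pparab was lost without uninjured replicate 1. At 3 dpi per1a was not called in 5 of the 6 fits, and nr1d4b and rorca in 4 each.

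At 1 dpi, replicate 3 was the highest library for most of these genes. Of 29 listed clock and D-box genes other than the 4, 26 had their highest 1 dpi level in 1 dpi replicate 3 and 3 in replicate 2. The same replicate was highest for dbpa, dbpb and tefb, and replicate 2 for tefa. All listed genes together held 29.4%, 31.4% and 34.2% of the reads in 1 dpi replicates 1, 2 and 3. How many of all listed genes were highest in replicate 3 was not counted. Whether this is particular to the clock and D-box genes is thus not known. Without 1 dpi replicate 3 the changes at 1 dpi were 2.599 for dbpa, 4.27 for dbpb, 1.07 for tefa and 1.36 for tefb.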

How the data were processed

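Poly(A) RNA of 15 kidney samples was grouped by sample title and treatment label. The authors cleaned paired-end reads, assembled transcripts with StringTie 1.3.3b, counted reads per gene with featureCounts 1.5.0-p3 and deposited FPKM on GRCz11. How the 5686 listed genes were selected is not given in the sources used here. Whole reads were recovered from the FPKM for 5686 genes (100% within 0.01 of a whole number), and each may be a pair of sequenced ends. Floors cover counting error only.

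limma 3.58.1 (R 4.3.3, lmFit and eBayes with trend, two-sided) was run on log2(FPKM + 1) of the 6 samples of each pair of groups, with Benjamini-Hochberg adjustment over the 5685 genes with a value above 0 in 3 or more of the 15 samples and a threshold of 0.05. A difference is called when its adjusted p is below this threshold. The fit was tried on simulated reads of 3 dpi against uninjured kidneys only, with 1 setting of extra spread for all genes. Such a simulation does not show how far calls hold in these samples. The study's count test was replaced because the deposited values are FPKM. The study's methods describe the 3 samples of a condition as biological replicates. They do not say whether each came from 1 fish or several, so p-values measure the spread between these samples. Nothing states that replicate numbers pair the samples, and the main fits used no pairing. Alternatives were a pseudocount of 0.1 FPKM, a filter at a mean of 1 FPKM or none, quantile normalization or median-of-ratios scaling, all 15 samples in 1 fit, the replicate block, leaving out each sample, and voom on the recovered reads. Exact permutation tests enumerated 369600 assignments. The 7 dpi comparisons with 3 and 5 dpi and the ratio tests were added after the data were seen.

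Named genes were the 4 PAR bZIP genes, the 3 nearest ranked profiles of each, the D-box factors and the clock activators. Other list genes with values were named after these were seen. The 4 genes and all lists were chosen with earlier results of these data known. Genes that share sequence with a paralogue may share reads, and the strand setting of the counting is not given in the sources used here.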

Additional observations from a re-analysis of the deposited data

Results flagged for a closer look

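The change of dbpa against uninjured kidneys went in opposite directions at different times, with no sample as an exception. Every sample at 1, 3 and 5 dpi lay above, and every sample at 7 dpi below, all 3 uninjured samples. Over all genes tested, 24.6%, 18.5% and 21.5% were higher without overlap at 1, 3 and 5 dpi and 27.4% lower at 7 dpi, and dbpa passed the test against uninjured kidneys at none of 3, 5 and 7 dpi (limma adjusted p = 0.14, 0.19 and 0.069). In log2(FPKM + 1) the 7 dpi mean minus the 1 dpi mean was -3.24, a difference that was not tested because 1 dpi chose the gene. The 7 dpi mean minus the 3 dpi mean was -0.82 (limma adjusted p = 0.016, and 0.059 without 7 dpi replicate 3), and the 7 dpi mean minus the 5 dpi mean was -0.74 (limma adjusted p = 0.090). The 7 dpi values rested on 33, 14 and 27 reads and the uninjured values on 42, 50 and 44 reads, so counting error bears on both.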

How the results depend on the processing

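At 3, 5 and 7 dpi against uninjured kidneys none of the 4 genes was called under any of the 14 alternatives, where the lowest limma adjusted p was 0.093, 0.093 and 0.069. Directions turned in uncalled values of tefa, at 5 dpi without uninjured replicate 1 (-0.086, within a range of -0.086 to 0.283 over the replicates left out) and between 7 and 3 dpi under quantile normalization (0.045). The count of called PAR bZIP genes was 0 to 1 between 7 and 3 dpi and 0 to 2 between 7 and 5 dpi on leaving out each replicate. Exact p-values of the ratio of dbpb to dbpa were 0.0216 to 0.122 on leaving out each replicate and 0.242 with 1 FPKM added. Injured and uninjured samples with 1 replicate number had deviations across genes that correlated by -0.78 to 0.77, with no common sign. Whether the replicate number pairs the samples cannot be told from these values. The replicate block left 314, 0, 0 and 0 called genes at 1, 3, 5 and 7 dpi (1127, 757, 464 and 975 without it), so none of the other clock and D-box genes kept its call at 3, 5 or 7 dpi, and 525 between 7 and 3 dpi (951 without it), with exact p-values of 0.00347 for tefb to tefa and 0.0365 for dbpb to dbpa. With the block dbpa kept its call between 7 and 3 dpi (limma adjusted p = 0.049). The fit on all 15 samples called 1987, 1493, 1063 and 1315 genes at 1, 3, 5 and 7 dpi, 374 between 7 and 3 dpi and 47 between 7 and 5 dpi. Leaving out a replicate gave 539 to 1284, 50 to 1678, 0 to 189 and 0 to 1916 genes at 1, 3, 5 and 7 dpi, 342 to 744 between 7 and 3 dpi and 0 to 453 between 7 and 5 dpi. Quantile normalization called 571 genes at 7 dpi. The share of calls that were higher was 48.1% at 3 dpi and 27.9% at 7 dpi, against 59.9% and 47.1% with median-of-ratios scaling and 70.4% and 62.5% with quantile normalization, and between 7 and 3 dpi it was 61.2%, against 49.5% with quantile normalization. The median change of all genes moved to 0.08 at 3 dpi and -0.06 at 7 dpi under quantile normalization. The cause was not tested. Depth limits dbpa most, with 14 reads in its lowest sample.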
